A study of Caenorhabditis elegans with 20 samples.

Results

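The 10 autophagy genes *lgg-1*, *lgg-2*, *sqst-1*, *bec-1*, *unc-51*, *atg-7*, *atg-9*, *atg-18*, *epg-2* and *epg-5* were chosen by symbol, and all 10 were found among the 46284 genes of the deposited table. RNA came from whole *Caenorhabditis elegans* at day 1 of adulthood, kept at 20°C on OP50 bacteria, with 4 replicates in each of 5 strains. The mutants were *ivd-1(tm6784)*, which affects isovaleryl-CoA dehydrogenase in leucine breakdown, *bcat-1(hh58)*, which affects the aminotransferase that starts the breakdown of branched-chain amino acids, the strain carrying both alleles, *ivd-1(tm6784); bcat-1(hh58)* (called double mutant below), plus *hecd-1(tm2371)*, which affects an E3 ubiquitin ligase. They were set against wild-type. The *hh58* allele is an edited line with an early stop codon that stays viable, and the study describes it as slow to develop and low in offspring, so that worms were collected by stage. The comparisons asked how the transcripts of the autophagy machinery stood in each mutant, in the double mutant against *ivd-1(tm6784)*, and in *ivd-1(tm6784)* against *hecd-1(tm2371)*.

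Autophagy encloses cytoplasm in a double membrane, the autophagosome, which then fuses with the lysosome. The UNC-51 kinase starts the process, BEC-1 acts in the lipid kinase complex that makes PI3P on the growing membrane, ATG-9 vesicles and the PI3P reader ATG-18 help the membrane to expand, and ATG-7 activates the ubiquitin-like proteins LGG-1 and LGG-2, which are attached to lipid on it. SQST-1, the worm p62, carries ubiquitylated cargo to LGG-1 and is itself degraded by autophagy. EPG-2 is a scaffold for the removal of protein aggregates in embryos, and EPG-5 acts when autophagosomes mature into degrading ones. Transcript levels do not measure the flux of cargo through this pathway.

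Values are FPKM, the fragments of a gene scaled by its transcript length and by the mapped fragments of the sample. They summed to between 1004157 and 1136133 per sample, and depth relative to the other samples was 0.888 to 1.08, but the number of reads is unknown, so no counting interval can be given. As a check of the labels, *hecd-1* was at 21.5 to 23.3 FPKM in *hecd-1(tm2371)* and 32.3 to 33.7 FPKM in wild-type, and *ivd-1* at 59.7 to 65.9 FPKM in the double mutant, 149 to 162 FPKM in *ivd-1(tm6784)* and 206 to 230 FPKM in wild-type. The *bcat-1(hh58)* worms, whose label names no *ivd-1* allele, had less *ivd-1* than *ivd-1(tm6784)*, at 123 to 127 FPKM, so the level of the whole gene does not mark the strains that carry *tm6784*. *bcat-1* was not lowered in *bcat-1(hh58)*, at 197 to 218 FPKM there and 123 to 145 FPKM in wild-type. Strains were compared with limma on log2(FPKM + 0.5), two-sided, over 15957 genes with 0.5 FPKM or more in at least 4 samples. All 10 autophagy genes passed this filter, and none was at 0 in any sample. The call threshold was an adjusted p of 0.05 (Benjamini-Hochberg, over all tested genes), and "rose" and "fell" are used for called genes only. All comparisons share 1 fit, and the 4 against wild-type share the same 4 control samples.

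**Figure D1:**
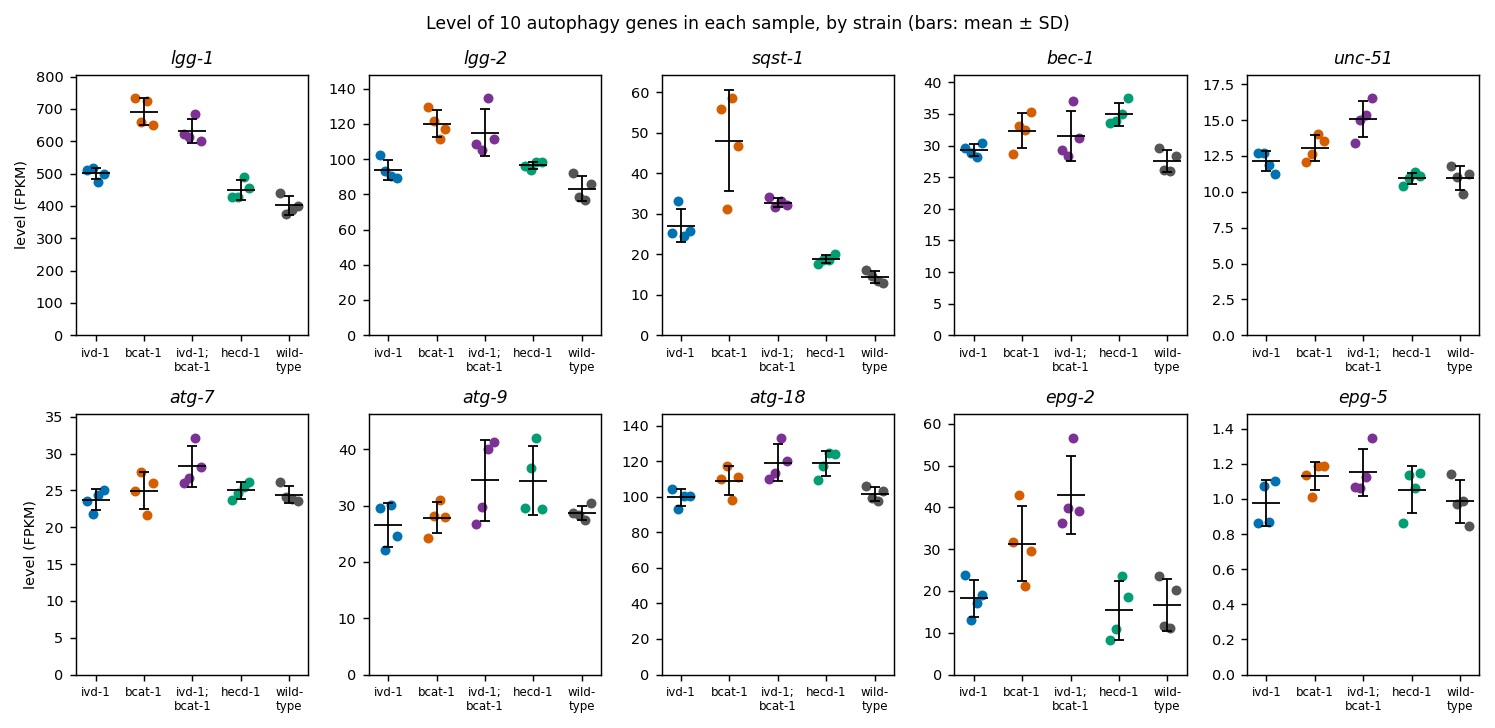
The level of each of the 10 autophagy genes in FPKM (vertical axes, starting at 0) in each of the 4 samples of the 5 strains (points), with the mean and SD of each strain (bars). *lgg-1* spans 651 to 733 FPKM in *bcat-1(hh58)* and 376 to 441 FPKM in wild-type, and *epg-5* stays between 0.844 and 1.35 FPKM throughout.

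The genes of the ubiquitin-like proteins, *lgg-1* and *lgg-2*, and of the cargo receptor, *sqst-1*, all rose in *bcat-1(hh58)* and in the double mutant. *lgg-1*, on chromosome II, was the most abundant of the 10 genes by FPKM, with a mean of 535 FPKM over the 20 samples. It stood at 510, 517, 475 and 498 FPKM in *ivd-1(tm6784)*, at 733, 659, 723 and 651 FPKM in *bcat-1(hh58)*, at 623, 614, 685 and 601 FPKM in the double mutant and at 426, 428, 489.8 and 454 FPKM in *hecd-1(tm2371)*, against 441, 376, 388 and 399.8 FPKM in wild-type. Every *ivd-1(tm6784)*, *bcat-1(hh58)* and double mutant sample was above every wild-type sample, and *hecd-1(tm2371)* overlapped wild-type. *lgg-1* rose by 0.32 ± 0.06 (SE, n = 4 each; log2 scale throughout) in *ivd-1(tm6784)* (limma adjusted p = 0.000923), by 0.79 ± 0.06 in *bcat-1(hh58)* (limma adjusted p = 3.35e-08) and by 0.65 ± 0.06 in the double mutant (limma adjusted p = 3.67e-07). In *hecd-1(tm2371)* its difference was 0.16 ± 0.06 (limma adjusted p = 0.0584), which passed without replicate 1 of *hecd-1(tm2371)*, replicate 1 of wild-type or replicate 3 of the double mutant (adjusted p = 0.0214 to 0.0458 in limma). In whole worms, fewer cells of a type and less RNA per cell cannot be told apart, here or in any result that follows.

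Some neuron and germline markers were also called in the strains where *lgg-1* rose. The neuron markers did not follow it throughout. In the double mutant against *ivd-1(tm6784)*, 5 of 6 were lower and 1 higher, while *lgg-1* and *lgg-2* were higher. Of 6 neuron markers, 5 were higher in *ivd-1(tm6784)* worms, 6 in *bcat-1(hh58)*, 2 in the double mutant and 1 in *hecd-1(tm2371)* than in wild-type, and 0 were lower by limma, also at an unadjusted p under 0.05. Their summed level was 189 to 199.6 FPKM in *ivd-1(tm6784)*, 218 to 234 FPKM in *bcat-1(hh58)*, 207 to 221 FPKM in the double mutant and 204 to 217 FPKM in *hecd-1(tm2371)*, against 176 to 197 FPKM in wild-type. The marker *snb-1* made up most of this sum, at 145 to 161 FPKM in *ivd-1(tm6784)* and 149 to 170 FPKM in wild-type. It was the 1 neuron marker not called in *ivd-1(tm6784)*. Over the 20 samples the sum had a correlation of 0.802 with *lgg-1*, 0.907 with *lgg-2* and 0.721 with *sqst-1*. Once the strain means were removed these were 0.467, 0.747 and -0.0107, and all of them mostly follow *snb-1*. Of 6 germline markers, 2 were lower in *ivd-1(tm6784)* worms, 3 in *bcat-1(hh58)* and 3 in the double mutant, while in *hecd-1(tm2371)* 3 were higher and 1 lower. The germline sum had a correlation of -0.781 with *lgg-1*, -0.608 with *lgg-2* and -0.783 with *sqst-1*, and within strains of 0.161, 0.265 and -0.197. The germline marker *him-3* was at 0 in *bcat-1(hh58)* replicate 4, double mutant replicate 1 and wild-type replicate 3, and at 82.0 to 127 FPKM elsewhere. The zeros lower the germline sum in those 3 libraries and so bear on these correlations. The intestine sum, most of which was *vit-6*, had a correlation of 0.355 with *lgg-1*, 0.307 with *lgg-2* and 0.165 with *sqst-1*. Within strains it was at -0.517, -0.225 and -0.68. These are descriptions over libraries that share their scaling, and the part of any of these tissues in the results of the 3 genes was not tested.

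*sqst-1*, on chromosome IV, spanned the widest range of strain means, 3.35-fold between the highest and the lowest. It was at 25.1, 33.0, 24.4 and 25.7 FPKM in *ivd-1(tm6784)*, at 55.8, 31.1, 58.5 and 46.8 FPKM in *bcat-1(hh58)*, at 33.99, 31.6, 33.0 and 32.2 FPKM in the double mutant and at 17.6, 18.7, 18.6 and 20.0 FPKM in *hecd-1(tm2371)*, against 16.202, 14.7, 13.4 and 13.01 FPKM in wild-type. Every sample of the 4 mutant strains was above the wild-type range, and replicate 2 of *bcat-1(hh58)* lay with the double mutant, below the other *bcat-1(hh58)* samples. *sqst-1* rose by 0.89 ± 0.14 in *ivd-1(tm6784)* (limma adjusted p = 0.000319), by 1.67 ± 0.14 in *bcat-1(hh58)* (limma adjusted p = 1.42e-07) and by 1.17 ± 0.14 in the double mutant (limma adjusted p = 1.11e-05). In *hecd-1(tm2371)* the difference was 0.38 ± 0.14 (limma adjusted p = 0.0715), although the samples did not overlap with wild-type, and without *bcat-1(hh58)* replicate 2, the lowest of its strain, the same difference had an adjusted p of 0.00743 in limma.

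Of the 5 hypodermis and cuticle markers, the collagen and cuticle genes *dpy-7*, *rol-6*, *dpy-13* and *sqt-3* were also higher in *ivd-1(tm6784)* worms, *bcat-1(hh58)* and the double mutant than in wild-type, 4 of 5 in each, and 0 of 5 were called in *hecd-1(tm2371)* by limma, with 1 of 5 at an unadjusted p under 0.05. The fifth, the adult collagen gene *col-19*, did not go with them and fell by 0.32 on the log2 scale in *bcat-1(hh58)*, with a difference of -0.32 also in the double mutant that was not called. The summed level of all 5 was 2643 to 2836 FPKM in *ivd-1(tm6784)*, 1963 to 2836 FPKM in *bcat-1(hh58)*, 1373 to 2477 FPKM in the double mutant and 2004 to 2318 FPKM in *hecd-1(tm2371)*, against 2189 to 2412 FPKM in wild-type, and *col-19* made up most of it. *dpy-13* shared with *sqst-1* a low replicate 2 in *bcat-1(hh58)*, at 310, 177, 590.2 and 305 FPKM in the 4 samples, and a high replicate 2 in *ivd-1(tm6784)*, at 157.5, 261, 120.4 and 209 FPKM. The part of tissue or stage in the *sqst-1* result was not tested.

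*lgg-2*, on chromosome IV, encodes the second LC3-like protein. It was at 102, 92.98, 90.3 and 89.4 FPKM in *ivd-1(tm6784)*, at 129.7, 122, 111 and 117 FPKM in *bcat-1(hh58)*, at 109, 105, 134 and 111 FPKM in the double mutant and at 96.1, 93.8, 98.0 and 98.1 FPKM in *hecd-1(tm2371)*, against 92.1, 78.2, 76.8 and 85.8 FPKM in wild-type. The *bcat-1(hh58)* and double mutant samples stood clear of wild-type, the *hecd-1(tm2371)* samples just clear of it, and the *ivd-1(tm6784)* samples overlapped it. *lgg-2* rose by 0.53 ± 0.07 in *bcat-1(hh58)* (limma adjusted p = 1.49e-05), by 0.46 ± 0.07 in the double mutant (limma adjusted p = 0.00013) and by 0.22 ± 0.07 in *hecd-1(tm2371)* (limma adjusted p = 0.0444), with 0.17 ± 0.07 in *ivd-1(tm6784)* (limma adjusted p = 0.0972). The *hecd-1(tm2371)* call was lost with any 1 of 12 libraries left out (replicates 1 to 4 of *hecd-1(tm2371)*, 2 to 4 of wild-type, 2 to 4 of *ivd-1(tm6784)*, and replicate 4 of *bcat-1(hh58)* and of the double mutant), with adjusted p of 0.0514 to 0.134 and log2 differences of 0.18 to 0.23. The *ivd-1(tm6784)* difference passed instead without wild-type replicate 1 or double mutant replicate 3 (adjusted p = 0.0411 to 0.0469 in limma).

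Among the genes that start the process, *unc-51* stood at 12.7, 12.7, 11.9 and 11.3 FPKM in *ivd-1(tm6784)*, at 12.1, 12.6, 14.0 and 13.6 FPKM in *bcat-1(hh58)*, at 13.4, 15.01, 15.3 and 16.5 FPKM in the double mutant and at 10.4, 10.98, 11.4 and 11.1 FPKM in *hecd-1(tm2371)*, against 11.8, 11.03, 9.85 and 11.2 FPKM in wild-type. Its double mutant samples were all above wild-type, the *bcat-1(hh58)* samples narrowly so, and the other strains overlapped it. It rose by 0.44 ± 0.07 in the double mutant (limma adjusted p = 0.000157) and by 0.24 ± 0.07 in *bcat-1(hh58)* (limma adjusted p = 0.0101). With quantile normalization the *bcat-1(hh58)* difference took the other sign, -0.16 (limma adjusted p = 0.133), and with median-of-ratios scaling it was 0.07 (limma adjusted p = 0.464), so the direction of *unc-51* in that strain depended on the scaling.

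*bec-1*, the worm Beclin, was highest in *hecd-1(tm2371)*, at 33.5, 33.9, 35.0 and 37.5 FPKM, against 29.6, 26.2, 25.9 and 28.4 FPKM in wild-type. It was at 28.6 to 35.4 FPKM in *bcat-1(hh58)*, 28.3 to 37.1 FPKM in the double mutant and 28.2 to 30.5 FPKM in *ivd-1(tm6784)*, all overlapping wild-type. *bec-1* rose by 0.34 ± 0.08 in *hecd-1(tm2371)* (limma adjusted p = 0.00557), a call that held in every alternative run, and by 0.23 ± 0.08 in *bcat-1(hh58)* (limma adjusted p = 0.0231). In *hecd-1(tm2371)* 4 of 6 oocyte markers also rose, and 3 of 6 intestine and 2 of 5 body wall muscle markers fell. The oocyte marker *rme-2* was at 0 in its replicate 1 and at 388 to 437 FPKM in the others. Within strains *bec-1* was at 0.569 with the oocyte sum and -0.71 with the muscle sum, and the part of these tissues was not tested. The *bcat-1(hh58)* call was lost without *bcat-1(hh58)* replicate 4, wild-type replicate 2 or wild-type replicate 3 (adjusted p = 0.0631 to 0.0799 in limma, log2 difference 0.19 to 0.21) and with median-of-ratios scaling (0.05, limma adjusted p = 0.641). In the double mutant the difference was 0.18 ± 0.08 (limma adjusted p = 0.0697), and it passed without wild-type replicate 1 or double mutant replicate 2 (adjusted p = 0.0332 to 0.0491 in limma).

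Of the genes of membrane expansion and lipid attachment, *atg-18* rose in 2 mutants, *atg-7* in 1 and *atg-9* in 0 by limma against wild-type. *atg-18* was at 99.6 ± 4.70 FPKM in *ivd-1(tm6784)* worms, 109 ± 7.95 FPKM in *bcat-1(hh58)*, 119 ± 10.3 FPKM in the double mutant and 119 ± 6.95 FPKM in *hecd-1(tm2371)*, against 102 ± 3.76 FPKM in wild-type (mean ± SD, n = 4 each). It rose by 0.23 ± 0.06 in the double mutant (limma adjusted p = 0.00897) and by 0.22 ± 0.06 in *hecd-1(tm2371)* (limma adjusted p = 0.0184), and neither group overlapped wild-type. The *hecd-1(tm2371)* call was lost without replicate 3 or 4 of *hecd-1(tm2371)* or replicate 2 or 3 of wild-type (adjusted p = 0.0534 to 0.0616 in limma, log2 difference 0.20 to 0.21), and with median-of-ratios scaling both were lost (limma adjusted p = 0.183 in the double mutant and 0.127 in *hecd-1(tm2371)*).

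*atg-7*, which encodes the E1-like enzyme, was at 26.1, 26.6, 32.2 and 28.1 FPKM in the double mutant, against 26.1, 24.1, 23.8 and 23.6 FPKM in wild-type, and the groups overlapped at wild-type replicate 1. It rose by 0.20 ± 0.07 there (limma adjusted p = 0.0392). The call was lost without replicate 3 or 4 of the double mutant or replicates 2, 3 or 4 of wild-type (adjusted p = 0.0704 to 0.145 in limma, log2 difference 0.14 to 0.20) and under both scalings (0.12 and 0.09, limma adjusted p = 0.334 and 0.451). *atg-9* ran between 22.1 and 42.1 FPKM over the 20 samples and was called in no comparison with wild-type. Its *hecd-1(tm2371)* samples were split, at 36.6 and 42.1 FPKM in replicates 2 and 3 and 29.6 and 29.5 FPKM in replicates 1 and 4, against 27.4 to 30.4 FPKM in wild-type.

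*epg-2* varied more within a strain than the other genes of the 10 did, in each of the 5 strains, with a coefficient of variation of 21.5% to 45.6%. It was at 23.8, 13.1, 17.2 and 18.9 FPKM in *ivd-1(tm6784)*, at 31.7, 42.9, 21.2 and 29.5 FPKM in *bcat-1(hh58)*, at 36.3, 39.8, 56.7 and 39.2 FPKM in the double mutant and at 8.31, 10.9, 23.6 and 18.5 FPKM in *hecd-1(tm2371)*, against 23.5, 11.7, 11.1 and 20.1 FPKM in wild-type. The double mutant was clear of wild-type and the other strains were not. *epg-2* rose by 1.40 ± 0.31 in the double mutant (limma adjusted p = 0.00194) and by 0.92 ± 0.31 in *bcat-1(hh58)* (limma adjusted p = 0.0213). The *bcat-1(hh58)* call was lost without *bcat-1(hh58)* replicate 2 or wild-type replicate 2 or 3 (adjusted p = 0.0626 to 0.0747 in limma, log2 difference 0.76 to 0.79). It held in 6 of the 10 other alternatives. Those that lost it included median-of-ratios scaling and leaving out the 2 libraries farthest from their strain mean.

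*epg-2* ran with the 5 early embryo markers, whose summed level was 2.60 to 6.64 FPKM in *ivd-1(tm6784)*, 6.65 to 16.8 FPKM in *bcat-1(hh58)*, 10.8 to 18.6 FPKM in the double mutant and 3.66 to 11.03 FPKM in *hecd-1(tm2371)*, against 3.33 to 7.45 FPKM in wild-type. Of these markers 3 passed the filter on low values, 1 was higher in *bcat-1(hh58)* and 3 in the double mutant than in wild-type, and *med-1* was at 0 in 4 samples. The marker *pes-10* made up most of the sum, at 7.74 to 12.6 FPKM in the double mutant and 2.07 to 4.84 FPKM in wild-type. Correlations with the sum mostly follow *pes-10*. Replicate 3 of the double mutant and replicate 2 of *bcat-1(hh58)* were the highest of the 20 samples for both the markers and *epg-2*. Over the 20 samples the correlation of the log2 values was 0.908, 0.964 once the strain means were removed, and 0.902 over 18 samples without the 2 farthest from the median marker level. These values describe libraries that share their worms and their scaling, and the part of embryos in the *epg-2* result was not tested. With the 2 libraries highest in embryo markers left out, *epg-2* still rose in the double mutant and did not pass in *bcat-1(hh58)* (0.76, limma adjusted p = 0.0598).

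**Figure D2:**
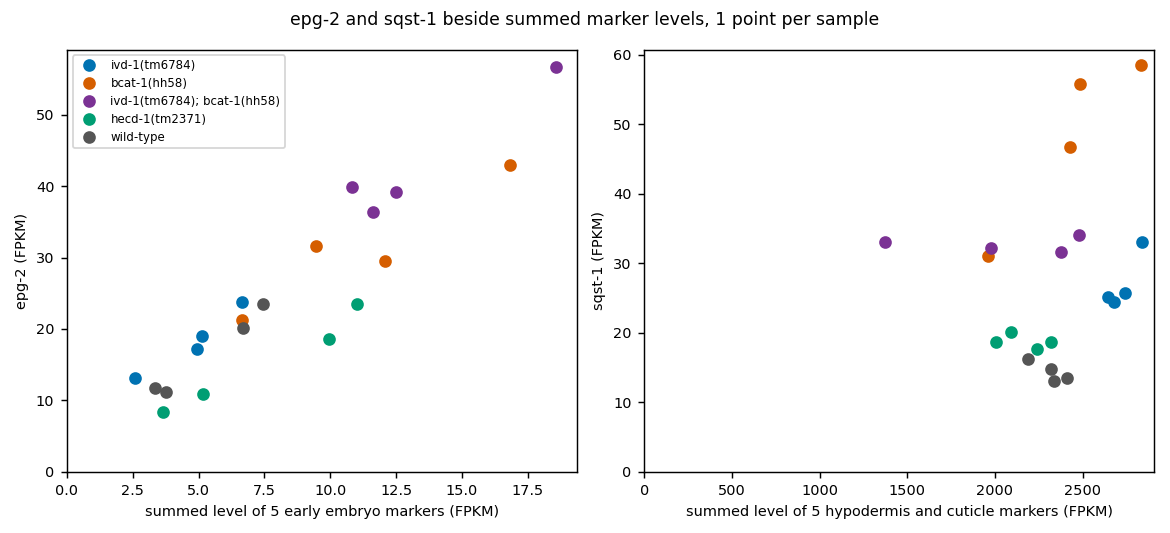
Left, *epg-2* (FPKM) against the summed level of 5 early embryo markers (FPKM), and right, *sqst-1* (FPKM) against that of 5 hypodermis and cuticle markers (FPKM), with 1 point per sample colored by strain. *epg-2* runs from 8.31 to 56.7 FPKM along with the embryo sum, most of which is *pes-10*. *sqst-1* does not follow the cuticle sum, which *col-19* dominates.

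*epg-2*, on chromosome I, lies over part of *tpxl-1* on the other strand, and *epg-5* over part of *vps-33.2*, and whether the counting used strand is not stated for these values. *tpxl-1*, which encodes a spindle protein, did not follow *epg-2*. Its difference was -0.05 ± 0.07 in the double mutant (limma adjusted p = 0.604), and it fell by 0.31 on the log2 scale in *bcat-1(hh58)* (limma adjusted p = 0.00195) and rose by 0.34 ± 0.07 in *hecd-1(tm2371)* (limma adjusted p = 0.00371). *vps-33.2* fell in *bcat-1(hh58)* (-0.19 ± 0.07, limma adjusted p = 0.0316) and was not called in the other mutants against wild-type. The part of reads from either neighbor in the *epg-2* and *epg-5* values was not tested. *epg-5* was low throughout, at 0.844 to 1.35 FPKM, and was called in none of the 7 comparisons, with differences from wild-type of -0.01 ± 0.10 in *ivd-1(tm6784)* worms, 0.13 ± 0.10 in *bcat-1(hh58)*, 0.15 ± 0.10 in the double mutant and 0.06 ± 0.10 in *hecd-1(tm2371)*. With quantile normalization it was lower in *ivd-1(tm6784)* (-0.44, limma adjusted p = 0.0249) and in *bcat-1(hh58)* (-0.47, limma adjusted p = 0.00789), so its direction depended on the scaling.

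Counted by comparison, 2 of the 10 genes rose in *ivd-1(tm6784)*, where 19.9% of all tested genes rose and 2.88% fell, so the count was near the background. In *bcat-1(hh58)* 6 of 10 rose, beside 33.9% of all tested genes that rose and 10.3% that fell. In the double mutant 7 of 10 rose, beside 26.4% and 11.9%. In *hecd-1(tm2371)* 3 of 10 rose, beside 14% and 7.15%. By limma, 0 of the 10 fell against wild-type in any mutant, and 0 were lower at an unadjusted p under 0.05. The median log2 difference of the 10 genes was 0.11 in *ivd-1(tm6784)* worms, 0.24 in *bcat-1(hh58)*, 0.34 in the double mutant and 0.19 in *hecd-1(tm2371)*, beside medians over all tested genes of 0.11 in *ivd-1(tm6784)* worms, 0.17 in *bcat-1(hh58)*, 0.10 in the double mutant and 0.08 in *hecd-1(tm2371)*. With median-of-ratios scaling the all-gene median was 0.03 in *ivd-1(tm6784)* worms, 0.02 in *bcat-1(hh58)*, 0.02 in the double mutant and 0.04 in *hecd-1(tm2371)*, and with quantile normalization it was -0.10, -0.14, -0.01 and 0.01 in those strains. The share of calls against wild-type that were higher moved with it, at 87.3% in *ivd-1(tm6784)* as deposited, 61.2% with median-of-ratios scaling and 38.2% with quantile normalization, and at 76.6%, 49.8% and 34.6% in *bcat-1(hh58)*, 69%, 55.3% and 44.2% in the double mutant and 66.1%, 40.3% and 41.1% in *hecd-1(tm2371)*. Relative to the all-gene median, *lgg-1* was higher by 0.21, 0.62 and 0.56, and *sqst-1* by 0.78, 1.51 and 1.07, in *ivd-1(tm6784)* worms, *bcat-1(hh58)* and the double mutant, and these 6 calls held under every alternative run.

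**Figure D3:**
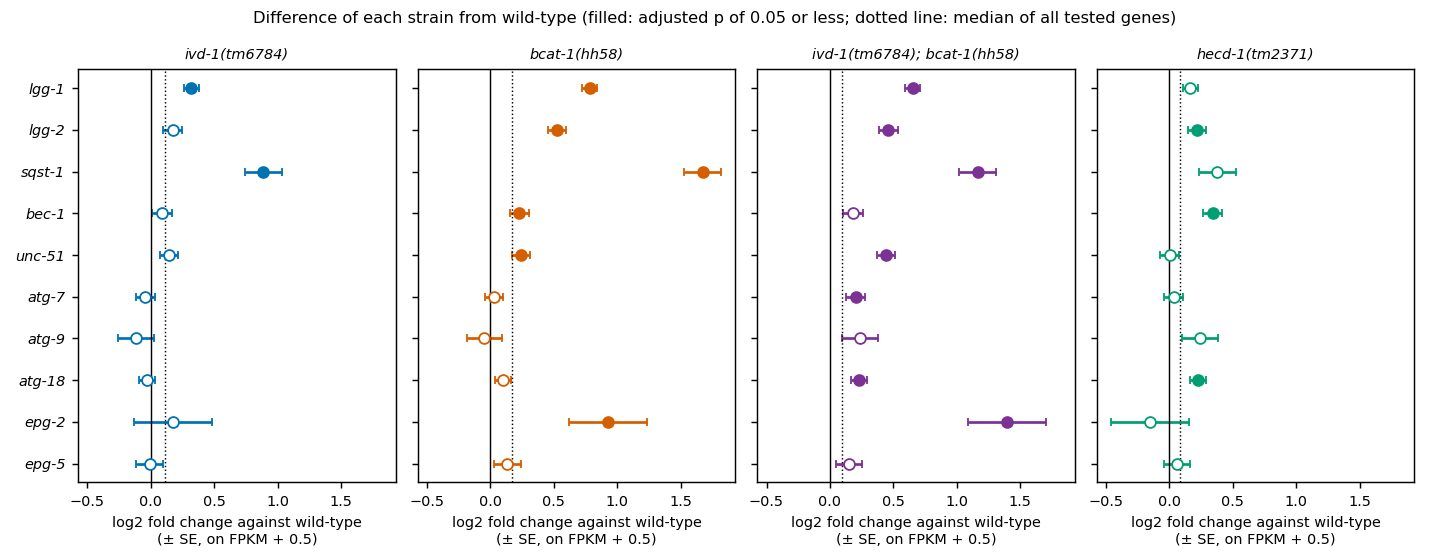
Log2 fold change of the 10 autophagy genes against wild-type (horizontal axes, points with SE, n = 4 per strain) in each of the 4 mutant strains, filled where the adjusted p was 0.05 or less. The dotted line is the median of all tested genes, and *sqst-1* reaches 1.67 in *bcat-1(hh58)* and *epg-2* 1.40 in the double mutant.

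Set against *ivd-1(tm6784)*, 6 of the 10 genes were higher in the double mutant, beside 21.4% of all tested genes higher and 23.2% lower, and 0 were lower by limma, also at an unadjusted p under 0.05. *epg-2* was higher by 1.22 ± 0.31 (limma adjusted p = 0.00483), *lgg-1* by 0.33 ± 0.06 (limma adjusted p = 0.000592), *unc-51* by 0.30 ± 0.07 (limma adjusted p = 0.0035), *lgg-2* by 0.29 ± 0.07 (limma adjusted p = 0.00513), *atg-18* by 0.26 ± 0.06 (limma adjusted p = 0.00412) and *atg-7* by 0.25 ± 0.07 (limma adjusted p = 0.0139). For each of the 6 the groups did not overlap. How many of all tested genes separate in this way is not given here, so this is a description only. *atg-7* did not pass without *ivd-1(tm6784)* replicate 2 or double mutant replicate 3 (adjusted p = 0.0549 to 0.0601 in limma, log2 difference 0.18 to 0.21). *sqst-1*, at 0.28 ± 0.14 (limma adjusted p = 0.125), passed without *bcat-1(hh58)* replicate 2 (adjusted p = 0.0202 in limma). *atg-9*, at 0.35 ± 0.14 (limma adjusted p = 0.0504), passed without any 1 of 7 libraries (replicates 1, 3 and 4 of *hecd-1(tm2371)*, 1 and 3 of *ivd-1(tm6784)*, 1 and 2 of the double mutant; adjusted p = 0.0137 to 0.0496 in limma). The median of the 10 genes was 0.28, beside -0.01 over all tested genes. In the same comparison 5 of 6 oocyte markers and all 3 early embryo markers that passed the filter were higher, while 5 of 5 sperm markers (median -1.94), 4 of 5 body wall muscle markers and 5 of 6 neuron markers were lower and 1 neuron marker higher. Of 6 intestine markers 2 were higher and 3 lower, and of 6 germline markers likewise 2 and 3. The summed sperm markers stood at 45.8 to 135.4 FPKM in the double mutant and 315 to 501 FPKM in *ivd-1(tm6784)*, and the summed oocyte markers at 2039 to 2614 FPKM in the double mutant and 1576 to 1896 FPKM in *ivd-1(tm6784)*. The part of these tissues in the 6 calls was not tested.

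Set against *hecd-1(tm2371)*, the *ivd-1(tm6784)* worms had 2 of 10 genes higher and 3 of 10 lower, beside 27.3% higher and 22.6% lower of all tested genes. The receptor gene *sqst-1* was higher in *ivd-1(tm6784)* by 0.51 ± 0.14 (limma adjusted p = 0.00796) and *lgg-1* by 0.16 ± 0.06 (limma adjusted p = 0.0372). *atg-18*, at 104, 93.1, 100.7 and 100.4 FPKM in *ivd-1(tm6784)* and 109.7, 117, 125 and 124 FPKM in *hecd-1(tm2371)*, was lower by 0.25 on the log2 scale (-0.25 ± 0.06, limma adjusted p = 0.0032), *bec-1* likewise (-0.25 ± 0.08, limma adjusted p = 0.0124), and *atg-9* more so with overlapping groups (-0.36 ± 0.14, limma adjusted p = 0.0426). The median was -0.06 for the 10 genes and 0.12 over all tested genes. The *lgg-1* call was lost without any 1 of 6 libraries (replicates 1, 2 and 4 of either strain; adjusted p = 0.0604 to 0.098 in limma, log2 difference 0.13 to 0.16) and under both scalings. The *atg-9* call was lost without any 1 of 7 libraries (replicates 2 and 4 of *ivd-1(tm6784)*, 2 and 3 of *hecd-1(tm2371)*, 4 of *bcat-1(hh58)*, 1 and 2 of wild-type), with adjusted p of up to 0.154. Of the markers, 5 of 6 oocyte markers were lower in *ivd-1(tm6784)* than in *hecd-1(tm2371)*, and 5 of 5 body wall muscle, 4 of 5 hypodermis and cuticle, and 5 of 6 neuron markers were higher. Of 6 intestine markers 5 were higher and 1 lower, and of 6 germline markers 3 were lower and 0 higher. Their part in these calls was not tested.

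The strains also allow a test of whether the change with 1 mutation differs in the presence of the other, as the log2 difference of the double mutant from *bcat-1(hh58)* minus that of *ivd-1(tm6784)* from wild-type. For *lgg-1* this term was -0.45 ± 0.08 (limma adjusted p = 0.000614) and for *sqst-1* it was -1.39 ± 0.20 (limma adjusted p = 8.98e-05). Both rose with *ivd-1(tm6784)* alone, whereas the double mutant was not above *bcat-1(hh58)*, with means of 631 ± 37.1 FPKM in the double mutant and 691 ± 42.4 FPKM in *bcat-1(hh58)* for *lgg-1*, and 32.7 ± 1.05 FPKM in the double mutant and 48.0 ± 12.4 FPKM in *bcat-1(hh58)* for *sqst-1* (mean ± SD, n = 4 each). The groups overlapped for both genes, and the double mutant was not tested directly against *bcat-1(hh58)*.

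By this term 2 of the 10 genes were lower and 0 higher, beside 35.3% lower and 12.2% higher of all tested genes, and by limma 3 were lower and 0 higher at an unadjusted p under 0.05. The median was 0.04 for the 10 genes and -0.19 over all tested genes. The all-gene median was -0.03 with median-of-ratios scaling and 0.19 with quantile normalization, and the share of calls that were higher was 25.7% as deposited, 49.4% with median-of-ratios scaling and 68.7% with quantile normalization. The *lgg-1* and *sqst-1* calls held in every alternative run. By the same term 5 of 5 sperm, 5 of 5 body wall muscle, 5 of 6 neuron, and 4 of 5 hypodermis and cuticle markers were lower, and 5 of 6 oocyte markers higher. Of 6 intestine markers 5 were lower and 1 higher, and of 6 germline markers 4 were higher and 0 lower. The part of these tissues in the term was not tested. Under the scalings other genes of the 10 were called higher, namely *atg-7*, *atg-9* and *atg-18* with median-of-ratios scaling (0.41, 0.59 and 0.35) and also *unc-51* and *epg-5* with quantile normalization (0.54 and 0.85). *lgg-2*, at -0.24 ± 0.10 (limma adjusted p = 0.0654), passed without double mutant replicate 3 or wild-type replicate 1 (adjusted p = 0.0106 to 0.0329 in limma). *atg-7*, at 0.22 ± 0.11, passed without *bcat-1(hh58)* replicate 2 (adjusted p = 0.0385 in limma), and *atg-9*, at 0.40 ± 0.20, without double mutant replicate 1 (adjusted p = 0.0349 in limma).

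**Figure D4:**
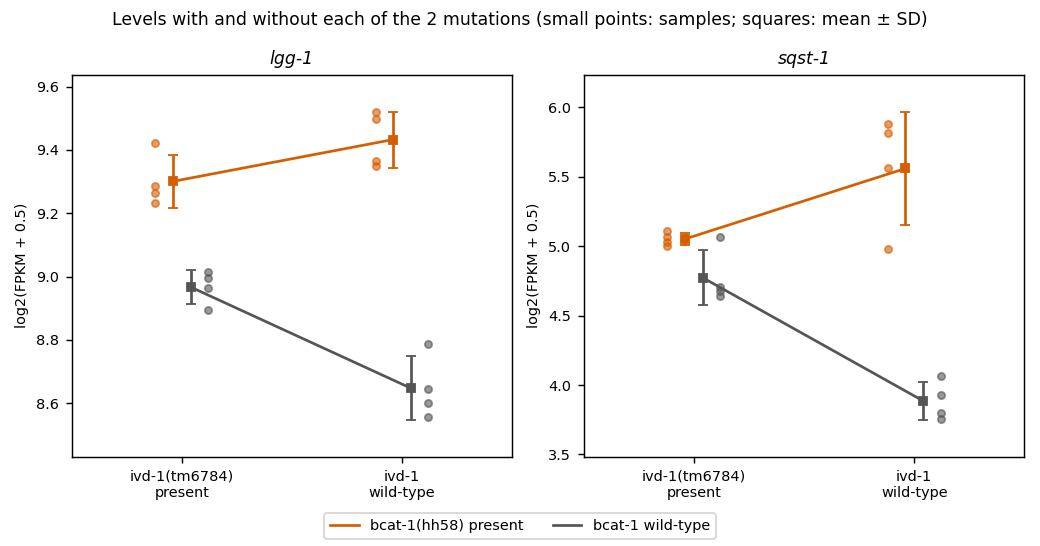
Level of *lgg-1* and *sqst-1* as log2(FPKM + 0.5) (vertical axes) with *ivd-1(tm6784)* present and with *ivd-1* wild-type (horizontal axis), in worms with *bcat-1(hh58)* (orange) and without it (gray); small points are samples and squares the mean with SD, n = 4. The lines are not parallel, with a difference between their slopes of -0.45 for *lgg-1* and -1.39 for *sqst-1*.

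In order of mean level, *bcat-1(hh58)* came first for *lgg-1*, *lgg-2* and *sqst-1*, followed by the double mutant, and the samples of these strains overlapped for all 3 genes. Wild-type was the lowest strain for each of them. The double mutant came first for *unc-51*, *atg-7*, *atg-9*, *atg-18*, *epg-2* and *epg-5*, and for these 6 genes all neighbors in the order overlapped. *bec-1* was the exception, with *hecd-1(tm2371)* first at 35.0 FPKM and *bcat-1(hh58)* next at 32.4 FPKM, also with overlap.

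The 10 genes did not form a single pattern. Over the 20 samples, the correlation of log2 values was 0.94 between *lgg-1* and *sqst-1* and 0.915 between *lgg-1* and *lgg-2*, and with the strain means removed it was 0.507 and 0.64. *atg-7* and *atg-18* ran together also within strains, at 0.813 over all samples and 0.915 within strains, while *sqst-1* and *atg-7* were at 0.101 over all samples and -0.451 within strains. With the summed markers, *atg-18* within strains was at 0.906 for oocyte, 0.878 for early embryo, -0.909 for sperm, -0.903 for body wall muscle and -0.857 for hypodermis and cuticle, and *atg-7* at 0.827, 0.756, -0.823, -0.84 and -0.845 for the same lists, so neither followed embryo markers alone. *lgg-1* was at 0.362 within strains with the early embryo markers and *sqst-1* at -0.411. *lgg-2* within strains was at 0.412 for oocyte, 0.585 for early embryo, -0.56 for sperm, -0.659 for body wall muscle and -0.714 for hypodermis and cuticle. The samples share their scaling, and these values are a description over 20 samples. The genes with the pattern most like *lgg-1* were *lgmn-1* (0.986), *pyr-1* (0.981) and *tth-1* (0.978), and those most like *sqst-1* were *vhp-1* (0.988), *mltn-9* (0.981) and *Y58A7A.5* (0.98), by correlation over the same 20 samples.

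Of 30 further genes of the pathway, drawn up by name and all tested, 2 rose in *ivd-1(tm6784)* and 0 fell, 11 rose and 1 fell in *bcat-1(hh58)*, 19 rose and 1 fell in the double mutant, and 6 rose and 0 fell in *hecd-1(tm2371)*. By limma, at an unadjusted p under 0.05, 1 of the 30 was lower in *ivd-1(tm6784)* and 0 in *hecd-1(tm2371)*. In the double mutant against *ivd-1(tm6784)* 18 were higher and 1 lower, in *ivd-1(tm6784)* against *hecd-1(tm2371)* 4 were higher and 13 lower, and by the interaction term 3 were higher and 5 lower. The background shares given above for the 10 genes apply to these counts as well. The 11 of 30 that rose in *bcat-1(hh58)*, beside 33.9% of all tested genes, were near the background. Of these 84 calls over 7 comparisons, 34 held in every alternative run, namely 0 of 2 in *ivd-1(tm6784)* worms, 6 of 12 in *bcat-1(hh58)*, 5 of 20 in the double mutant and 1 of 6 in *hecd-1(tm2371)* against wild-type, 13 of 19 in the double mutant against *ivd-1(tm6784)*, 9 of 17 in *ivd-1(tm6784)* against *hecd-1(tm2371)* and 0 of 8 by the interaction term.

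Among the partners of UNC-51, *epg-9*, which encodes the worm ATG101, rose by 0.72 ± 0.10 in *bcat-1(hh58)* (limma adjusted p = 1.61e-05) and by 0.49 ± 0.10 in the double mutant (limma adjusted p = 0.00101), and *epg-7*, an FIP200-like scaffold gene, by 0.32 ± 0.09 in *bcat-1(hh58)* and 0.44 ± 0.09 in the double mutant. The *epg-9* calls held throughout, whereas *epg-7* was -0.14 in *bcat-1(hh58)* and 0.22 in the double mutant with quantile normalization, not called in either. Its *bcat-1(hh58)* call was also lost with median-of-ratios scaling (limma adjusted p = 0.22). *atg-2*, which encodes a lipid transfer protein that works with ATG-18, rose by 0.42 ± 0.09 in *ivd-1(tm6784)* (limma adjusted p = 0.0023), 0.93 ± 0.09 in *bcat-1(hh58)* (limma adjusted p = 2.99e-07) and 0.74 ± 0.09 in the double mutant (limma adjusted p = 6.14e-06), though with quantile normalization its *ivd-1(tm6784)* difference was -0.03. The lipid kinase gene *vps-34* rose by 0.27 ± 0.04 in *bcat-1(hh58)* and 0.22 ± 0.04 in the double mutant. With quantile normalization both *vps-34* calls were lost, at 0.05 (limma adjusted p = 0.416) and 0.10 (limma adjusted p = 0.116), and the first also with median-of-ratios scaling. Of the 8 conjugation genes, 3 rose in *bcat-1(hh58)* and 5 in the double mutant, among them both *atg-16.1* and *atg-16.2*, whose proteins complex with ATG-5, at 0.46 ± 0.11 and 0.55 ± 0.11 in the double mutant, though both lost that call with quantile normalization (limma adjusted p = 0.268 and 0.076), where *atg-16.1* also took the other sign in *bcat-1(hh58)* (-0.14). Their *bcat-1(hh58)* calls were lost under both scalings, with limma adjusted p = 0.298 and 0.168 for median-of-ratios scaling.

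Of the 4 maturation genes, *epg-4*, *rab-7* and *cup-5* rose in the double mutant by 0.16 to 0.30, and *epg-3* fell by 0.27 in *bcat-1(hh58)*. With median-of-ratios scaling the first 3 were lost (0.21, 0.07 and 0.12; limma adjusted p = 0.0672, 0.327 and 0.325). *cup-5* was also lost without replicate 3 or 4 of the double mutant or replicate 2, 3 or 4 of wild-type (adjusted p = 0.0579 to 0.119 in limma), and *epg-3* without *bcat-1(hh58)* replicate 1 or wild-type replicate 4 (adjusted p = 0.0576 to 0.0844 in limma). Of the 4 mitophagy genes, *dct-1*, the worm BNIP3-like receptor gene, rose by 0.58 ± 0.12 in *bcat-1(hh58)* (limma adjusted p = 0.00059) and 0.39 ± 0.12 in the double mutant (limma adjusted p = 0.0149), the second lost under both scalings (limma adjusted p = 0.0592 and 0.181) and without wild-type replicate 3 (adjusted p = 0.0619 in limma). Among the 6 regulators, *hlh-30*, the worm TFEB and a transcriptional activator of autophagy genes, rose by 0.44 ± 0.07 in *bcat-1(hh58)* (limma adjusted p = 3.13e-05) and 0.33 ± 0.07 in the double mutant (limma adjusted p = 0.000816), and *mxl-3*, a repressor that opposes it, fell by 0.54 in the double mutant (limma adjusted p = 0.0415). The *mxl-3* groups overlapped, and the call was lost without replicate 2 or 3 of the double mutant or replicate 1 or 2 of wild-type (adjusted p = 0.0997 to 0.139 in limma) and in 3 other alternatives. *pha-4*, a FOXA factor, rose by 0.56 ± 0.13 in *ivd-1(tm6784)* (limma adjusted p = 0.00436), 1.09 ± 0.13 in *bcat-1(hh58)* (limma adjusted p = 2.91e-06) and 0.93 ± 0.13 in the double mutant (limma adjusted p = 3.19e-05), though with quantile normalization it was 0.14 in *ivd-1(tm6784)* (limma adjusted p = 0.472). *aak-2*, which encodes an AMPK subunit, rose by 0.44 ± 0.05 in *bcat-1(hh58)* and 0.41 ± 0.05 in the double mutant.

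In *hecd-1(tm2371)*, 6 of the 30 genes rose. The oocyte, intestine and body wall muscle markers called in this comparison are given beside *bec-1*, and their part here was not tested. *epg-4* rose by 0.37 ± 0.07 (limma adjusted p = 0.00246), *atg-4.2*, which encodes a protease that processes LGG proteins, by 0.42 ± 0.11 (limma adjusted p = 0.011), *epg-8*, *epg-6*, *vps-15* and *pink-1* by 0.16 to 0.28, and 0 of the 6 regulators were called by limma, with 1 at an unadjusted p under 0.05. The *epg-4* call held in every alternative run, and quantile normalization lost the other 5 (limma adjusted p = 0.0746 to 0.465). Median-of-ratios scaling also lost *epg-8*, *epg-6*, *vps-15* and *pink-1* (limma adjusted p = 0.0887 to 0.283). *pink-1* held in 6 of the 20 fits that leave out 1 library (adjusted p up to 0.133 in limma) and *vps-15* in 14, with replicates 2, 3 and 4 of *hecd-1(tm2371)* and 1, 2 and 3 of wild-type as the libraries that ended the *vps-15* call. *epg-6* was lost without replicate 3 or 4 of *hecd-1(tm2371)* or 2 or 3 of wild-type, and *epg-8* without replicate 3 or 4 of *hecd-1(tm2371)* or 2 of wild-type (adjusted p = 0.0604 to 0.106 in limma).

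**Figure D5:**
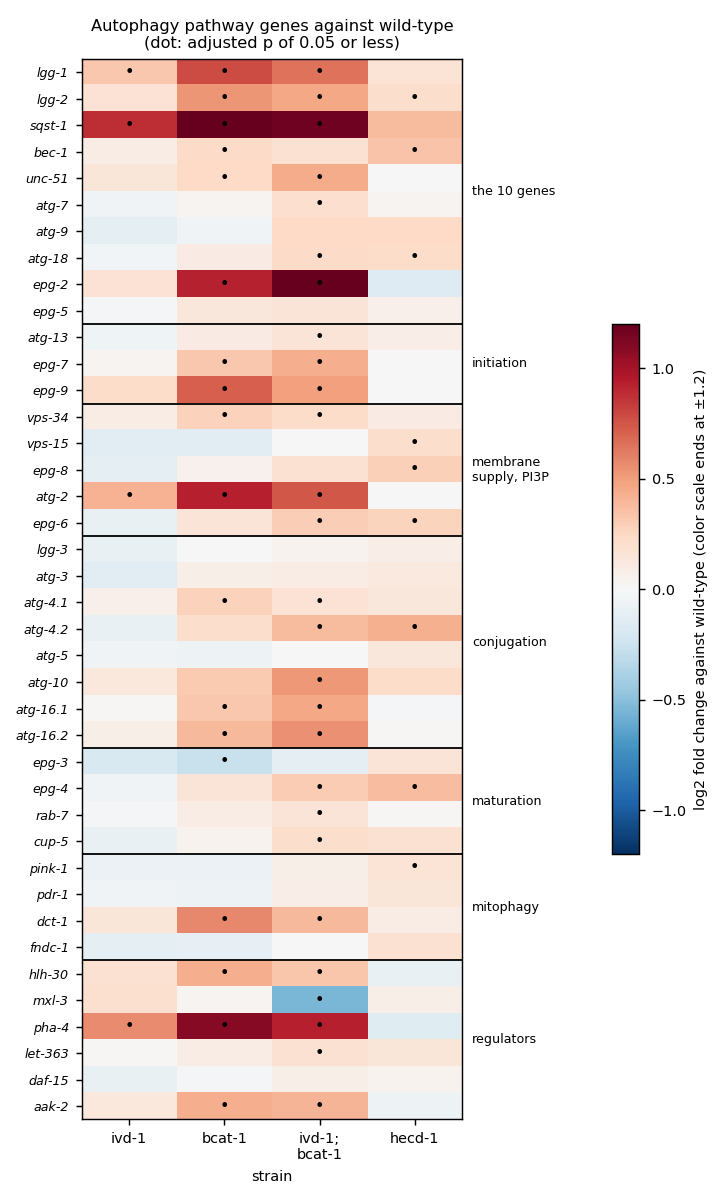
Log2 fold change against wild-type (color, with the scale ending at ±1.2) of the 10 autophagy genes and 30 further pathway genes (vertical axis, grouped by role) in the 4 mutant strains (horizontal axis), with a dot where the adjusted p was 0.05 or less. The *bcat-1(hh58)* and double mutant columns hold most of the dots. Of the 30 further genes, 11 and 19 were higher there, beside 33.9% and 26.4% of all tested genes.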

How the data were processed

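The authors prepared poly-A-selected, stranded libraries, aligned paired reads with Tophat2, summarized them with Cufflinks2 on an Ensembl annotation and deposited FPKM per gene; these values were used as deposited and carry no read counts. The submitters' processing notes also name CASAVA. All 20 value columns were matched to samples by title. Values were taken as log2(FPKM + 0.5), filtered at 0.5 FPKM in at least 4 samples, and fitted by strain alone with limma 3.58.1 (trended prior) in R 4.3.3 over all 20 samples, two-sided, in 7 comparisons, after the fit was tested on simulated data. The study's own test on counts was not repeated. Tables were read with Python 3.11.15 and pandas 2.3.3. Positions and overlaps came from WBcel235, Ensembl release 115, in which *epg-7* is the name for *atg-11*.

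The 10 genes, the 30 further pathway genes, the markers and the tests were chosen with earlier results of these data known. Named genes are those 10 genes, the further genes by list, the mutated genes and the 3 genes most correlated with each of *lgg-1* and *sqst-1*; the markers named beside results, *tpxl-1* and *vps-33.2* were added after their values were seen. Replicates were collected in independent experiments by the study's account. Alternatives were a pseudocount of 0.1 or 1, no filter, a mean FPKM of at least 1, median-of-ratios scaling, quantile normalization, a replicate block, a fit of just the strains at hand, and each sample left out. Leaving out the 2 libraries farthest from their strain mean, or the 2 highest in embryo markers, was chosen after seeing the data. Sequences were not used here.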

Additional observations from a re-analysis of the deposited data

Results flagged for a closer look

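Among 50 groups of 4 samples (10 genes in 5 strains), 1 held a sample far from the others by Dixon's test, where chance alone flags about 1 in 20. It was *sqst-1* in *ivd-1(tm6784)*, where replicate 2 stood at 33.0 FPKM and the other samples at 24.4 to 25.7 FPKM.

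The change with *ivd-1(tm6784)* differed between worms with and without *bcat-1(hh58)*, by the interaction term in limma (log2 scale), for 2 of the 10 genes and 8 of the 30 further genes. It was -0.45 for *lgg-1* and -1.39 for *sqst-1*. Of the further genes, it was -0.44 for *epg-9*, -0.61 for *atg-2* (0.12 with quantile normalization), -0.29 for *hlh-30*, -0.77 for *mxl-3* and -0.73 for *pha-4*. It was 0.26 for *vps-15*, 0.34 for *epg-3* and 0.22 for *pink-1*. None of these 8 calls of further genes held in every alternative run. Over all tested genes, 35.3% were called lower and 12.2% higher by the same term.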

How the results depend on the processing

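Of the 31 calls of the 10 genes over 7 comparisons, 21 held in every alternative and 10 were lost in at least 1. Median-of-ratios scaling lost 8 calls and quantile normalization 7. In *bcat-1(hh58)* against wild-type, 3 genes were called in place of 6 with median-of-ratios scaling, and also 3 without the 2 libraries farthest from their strain mean, *bcat-1(hh58)* replicates 2 and 3. In *hecd-1(tm2371)* against wild-type, median-of-ratios scaling left 1 of 3, and leaving out the 2 libraries highest in embryo markers, *bcat-1(hh58)* replicate 2 and double mutant replicate 3, gave 5. By the interaction term, 5 genes were called with median-of-ratios scaling and 7 with quantile normalization, in place of 2. The causes were not tested.

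Of the 84 calls of the 30 further genes, 50 were lost in at least 1 alternative, 24 with median-of-ratios scaling, 34 with quantile normalization and 27 with a library left out. Over the 40 genes and 7 comparisons, 280 values in all, the sign turned in 49 with quantile normalization and in 37 with median-of-ratios scaling. Of the first, 7 were called as deposited or after the normalization, and of the second 0. The 7 were in *bcat-1(hh58)* against wild-type for *unc-51* (-0.16), *epg-5* (-0.47), *epg-7* (-0.14), *atg-16.1* (-0.14) and *let-363* (-0.27), in *ivd-1(tm6784)* against wild-type for *atg-2* (-0.026), and by the interaction term for *atg-2* (0.12).

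With each sample left out in turn, the number of the 10 genes called ranged over 2 to 3 in *ivd-1(tm6784)*, 4 to 6 in *bcat-1(hh58)*, 6 to 8 in the double mutant and 1 to 4 in *hecd-1(tm2371)*, all against wild-type, 5 to 7 in the double mutant against *ivd-1(tm6784)*, 3 to 5 in *ivd-1(tm6784)* against *hecd-1(tm2371)* and 2 to 3 by the interaction term. The count of 1 came without *hecd-1(tm2371)* replicate 3 or 4 or wild-type replicate 2 or 3, and that of 3 in *ivd-1(tm6784)* against *hecd-1(tm2371)* without *ivd-1(tm6784)* replicate 2 or 4 or *hecd-1(tm2371)* replicate 2.

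The replicate numbers were not taken to pair the samples, since whether a number marks a shared experiment is not stated. Same-numbered samples did not all deviate together (correlations of 0.041 to 0.254 in *ivd-1(tm6784)* worms, -0.226 to 0.0957 in *bcat-1(hh58)*, -0.0157 to 0.0948 in the double mutant and 0.0835 to 0.301 in *hecd-1(tm2371)* against wild-type). Most of these values were above 0, and they do not settle whether the samples are paired. With the replicate number as a block, 2 calls were lost, *atg-7* in the double mutant (adjusted p = 0.0591 in limma) and *lgg-2* in *hecd-1(tm2371)* (adjusted p = 0.0521), and 1 was gained, *atg-9* in the double mutant against *ivd-1(tm6784)* (adjusted p = 0.0381). Pseudocounts changed 0 calls. Without read numbers, the precision of *epg-5*, near 1 FPKM, cannot be stated.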
